A study of Mus musculus with 6 samples.

Results

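Serpins are a superfamily of proteins most of which inhibit serine proteases. An inhibitory serpin offers the protease a flexible reactive loop, and cleavage of that loop traps the enzyme in an inactive complex, so each molecule acts once. The liver secretes most serpins of the blood, where they restrain elastase, clotting, fibrinolysis and complement, while some members carry hormones, chaperone collagen or inhibit proteases inside cells. The genes described here are all those whose mouse symbol is Serpin followed by a clade letter and a number. The RefSeq gene table held 69 such symbols, and 45 of them were matched to 49 probes through the probes' transcript accessions, out of 13968 genes named in the same way. The other 24, among them Serpina1a, Serpina3k and Serpina7, were not analysed here. Of the 45 genes, 14 lie on chromosome 12, 12 on chromosome 13 and 11 on chromosome 1, where clades A and B form clusters of related genes.

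The samples were livers of C57BL/6 mice aged 14 months, with RNA from each hybridized to a 1-colour oligonucleotide array. The Src-transgenic group was 3 mice (replicates 1, 3 and 4) that carried human c-Src, a tyrosine kinase and proto-oncogene, under the promoter of mouse metallothionein. The wild-type group was 3 mice without the transgene (replicates 1, 2 and 4). Zinc can induce this promoter, and the design text calls induction usually unnecessary. The labels do not say whether these mice were given zinc, how many transgenic lines were used or whether the tissue held tumour. The study set aside 1 further array of each group for low signal, and its aim was to find candidate effectors of Src in liver carcinogenesis. The labels number separate mice, and the p-values below measure only the spread between these 6 livers.

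The median probe signal was 94.8 to 117 on the transgenic arrays and 53.8 to 93.4 on the wild-type arrays, and 68.8% to 71.7% and 62.6% to 69% of probes lay above background. The targeted gene, Src, averaged 8.62 ± 0.99 in Src-transgenic and 6.83 ± 0.33 in wild-type livers on the log2 scale (SD, n = 3 each), a difference of 1.79 ± 0.51 (SE) without overlap, although the mouse probe may not read the human transcript. The transgene's promoter is that of a mouse metallothionein gene, and the sample titles do not say which. The metallothionein gene Mt1 had a log2 difference of 3.71 ± 0.53 and Mt2 1 of 4.88 ± 0.44. Of 19 hepatocyte genes listed, 16 were measured, and all 16 lay above background on every array. Regions of neighbouring spots that deviated together, called patches below, covered 0.724% to 7.54% of the probes on transgenic arrays and 1.13% to 4.6% on wild-type arrays. In whole liver, fewer cells of a type and less RNA per cell cannot be told apart.

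Across the 34175 features tested, which were the named genes and the unnamed probes, limma called 0 at an adjusted p under 0.05 (0%), and therefore 0 of the 45 serpin genes. The smallest adjusted p among the serpins was 0.69. At an unadjusted p under 0.05 there was 1 serpin higher in Src-transgenic livers and 1 lower, where all features gave 4.37% higher and 2.72% lower. The 3 transgenic values lay above all 3 wild-type values for 2 serpins and below them for 2, where all features gave 10.1% and 5.9%. These shares of the serpins were not above the background. The log2 difference, Src-transgenic minus wild-type, was positive for 28 serpins and negative for 17, or 62.2% positive, against 51.7% positive over all features. Its median was 0.07 over the serpins and 0.02 over all features, and it ran over the serpins from -2.59 to 1.43. Dividing each array by its median in place of quantile normalization left 18 positive and a median of -0.15. Local correction of patches gave a median of -0.02. It subtracts the median deviation of the neighbouring spots from every spot, also outside patches. The direction of the family as a whole thus depended on the processing.

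**Figure D1:**
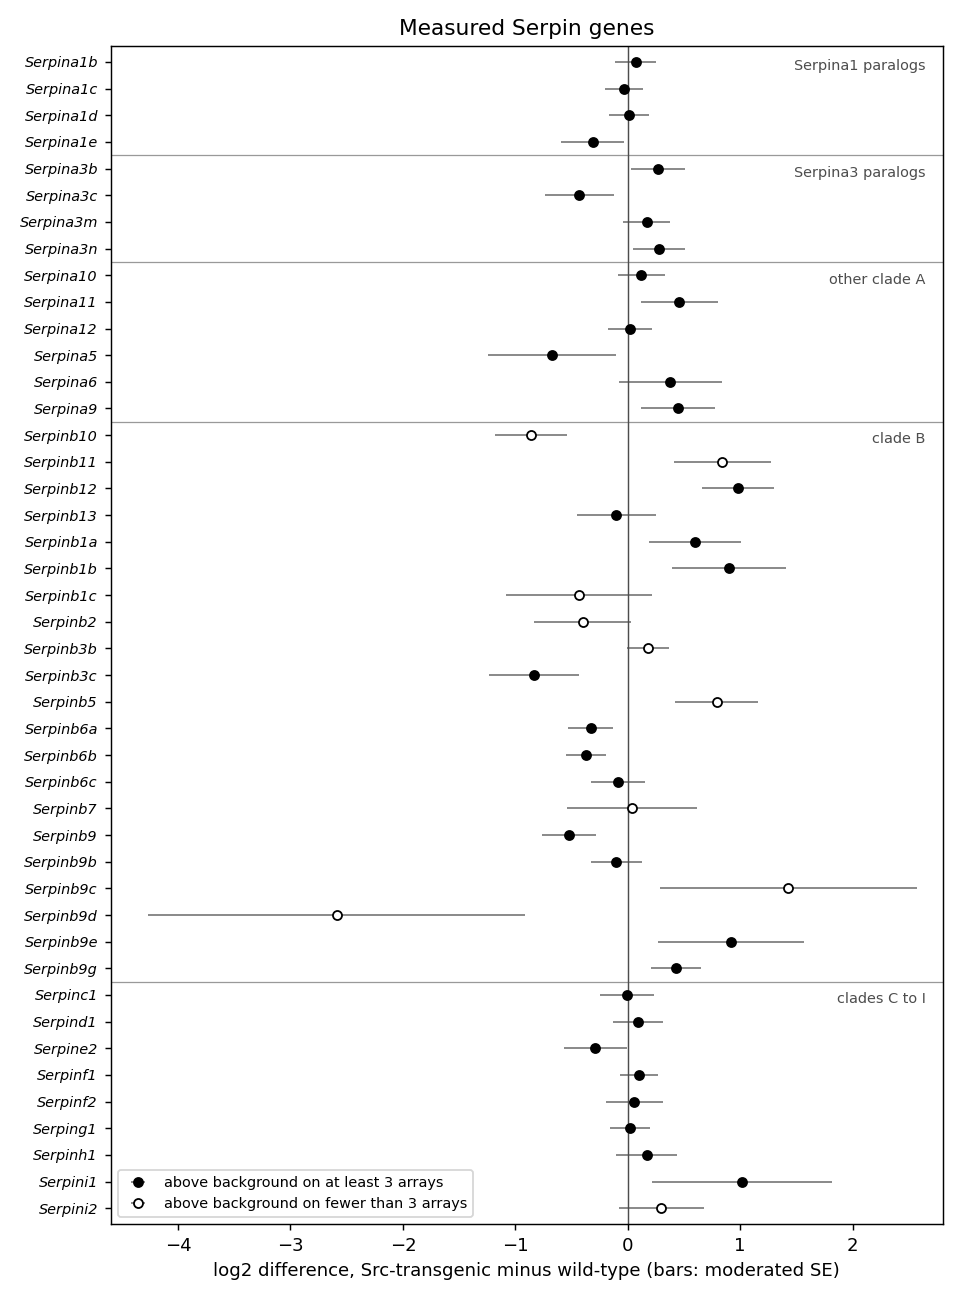
Log2 difference, Src-transgenic minus wild-type, of the serpin genes on the array with its standard error from limma, grouped by clade (n = 3 livers per group, filled points for genes above background on at least 3 arrays and open points for the others). Most of the secreted clades lie close to 0, and the wide differences and wide errors lie mainly in clade B.

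Of the 45 serpins, 35 lay above background on at least 3 arrays, 31 on all 6 and 5 on none. Those on none were all of clade B, whose members mostly act inside cells. They were Serpinb1c, Serpinb2, Serpinb5, Serpinb10 and Serpinb11. Their log2 differences ran from -0.86 to 0.84 and describe values at the dim end of the array. Serpinb10, named here after its values were seen, was the serpin counted above as lower, and it had log2 signals of 2.40, 2.43 and 3.19 in Src-transgenic livers, against 3.09, 3.67 and 3.84 in wild-type livers.

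The Serpina1 paralogs encode alpha1-antitrypsin, the plasma inhibitor of neutrophil elastase, which is a single gene in humans and several adjacent genes in mice. In textbook accounts their liver expression depends on the hepatocyte factor HNF1, whose palindromic site has the arm GTTAAT. The 4 measured paralogs carry this arm shortly before the annotated transcript start, and the stretches that hold it are shown because they make clear how alike these genes are. They are from RefSeq in build GRCm38.p6, are written 5′ to 3′ on the genes' own strand, contain only bases before the start, and have the arm in capitals.
Serpina1b (chr12:103738190-103738305, minus strand): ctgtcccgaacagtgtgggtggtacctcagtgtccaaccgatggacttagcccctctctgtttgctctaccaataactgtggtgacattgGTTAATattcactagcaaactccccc
Serpina1c (chr12:103904951-103905067, minus strand): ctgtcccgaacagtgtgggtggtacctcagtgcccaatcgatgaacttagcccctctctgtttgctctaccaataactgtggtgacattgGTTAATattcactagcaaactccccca
Serpina1d (chr12:103773634-103773739, minus strand): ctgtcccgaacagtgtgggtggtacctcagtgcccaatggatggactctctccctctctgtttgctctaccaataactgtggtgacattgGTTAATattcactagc
Serpina1e (chr12:103956946-103957065, minus strand): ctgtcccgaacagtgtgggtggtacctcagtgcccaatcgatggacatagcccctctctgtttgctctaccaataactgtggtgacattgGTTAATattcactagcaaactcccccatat
The arm began 26 bases before the annotated start in Serpina1b, 27 in Serpina1c, 16 in Serpina1d and 78 in Serpina1e. Aligned from the left without gaps, the stretches were 93.4% to 98.3% identical, and the longest run that all 4 share was 55 bases. In the 250 bases before the start, GTTAAT on either strand was found in 6.43% of 32851 RefSeq promoters and in 7 of the 37 measured serpins that had a promoter entry. Here and below the percentage is over promoter entries, whereas a gene was counted if any of its entries matched, so these are unlike measures. Besides these 4 paralogs, the 7 were Serpina3c, Serpinb3b and Serpini2. The full palindrome, that arm followed by 1 base of any kind and the arm's reverse complement, was found in 0.00913% of promoters and in 0 of the 37. A match describes letters only and is not a binding site.

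The Serpina1 genes gave some of the brightest signals on the arrays and differed little between groups. Serpina1b had log2 signals of 15.06, 14.95 and 14.86 in Src-transgenic livers, against 14.99, 14.88 and 14.80 in wild-type livers, a difference of 0.07 ± 0.18 (SE). Serpina1c had 14.75, 14.76 and 14.84 in Src-transgenic livers, against 14.75, 14.86 and 14.83 in wild-type livers, a difference of -0.03 ± 0.17. Serpina1d had 14.90, 14.72 and 14.88 in Src-transgenic livers, against 14.83, 14.91 and 14.75 in wild-type livers, a difference of 0.01 ± 0.18. In these 3 genes, with the probe used for each, the groups overlapped and all 6 livers lay close together. Serpina1e departed from this in a single liver. It had 14.83, 14.88 and 14.02 in Src-transgenic livers, against 14.86, 14.93 and 14.88 in wild-type livers, a difference of -0.31 ± 0.28 that became -0.04 without transgenic replicate 4. The other Serpina1c probe had 14.55, 14.20 and 13.92 in Src-transgenic livers, against 14.43, 14.55 and 14.24 in wild-type livers. Its difference was -0.18 ± 0.23, and it too was lowest in transgenic replicate 4. Probe sequences were not used here, so how far a probe of one paralog reads another is unknown.

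These small differences rest on quantile normalization. With each array divided by its median they were -0.67 for Serpina1b, -0.65 for Serpina1c, -0.66 for Serpina1d and -0.88 for Serpina1e. The same change moved the median of the brightest 3418 features to -0.22, against 0.01 under quantile normalization, and 14 serpins were among them. The signals of the 4 Serpina1 probes used were 18521 to 30878 in Src-transgenic livers and 27453 to 40994 in wild-type livers, while the brightest probe of an array was at 33211 to 42229 on transgenic and 36724 to 56503 on wild-type arrays. They thus lay near the upper end of the range, and no flags for saturated spots were used here.

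**Figure D2:**
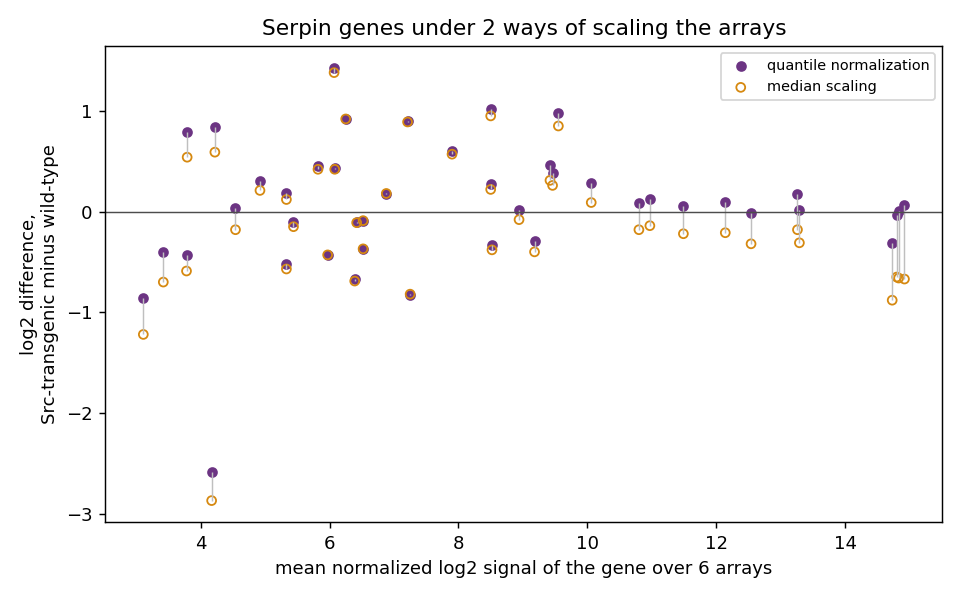
Log2 difference, Src-transgenic minus wild-type, of the serpins under quantile normalization and under median scaling, against its mean log2 signal. The brightest serpins, which include the Serpina1 genes near 0 under quantile normalization, lie clearly below 0 under median scaling.

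The Serpina3 paralogs correspond to human antichymotrypsin, an acute phase inhibitor of chymotrypsin-like proteases. Of 4 measured, 3 had positive log2 differences and 1 a negative one, with a median of 0.22, and 0 passed the test. Serpina3n, the acute phase member best known in mouse, had 10.40, 10.03 and 10.16 in Src-transgenic livers, against 10.10, 10.05 and 9.58 in wild-type livers, a difference of 0.28 ± 0.23 with overlapping groups. Serpina3m had 13.59, 13.25 and 13.19 in Src-transgenic livers, against 13.21, 13.28 and 13.02 in wild-type livers, a difference of 0.17 ± 0.21. Serpina3b gave 0.27 ± 0.24. Serpina3c had 6.00, 5.36 and 5.93 in Src-transgenic livers, against 6.46, 6.43 and 5.68 in wild-type livers, a difference of -0.43 ± 0.31 in which wild-type replicate 4 lay among the transgenic values. Other acute phase proteins were set beside them. Of 25 measured, 24 had positive differences and 1 a negative one, with a median of 0.33. An unadjusted p under 0.05 was reached by 6, all higher, where 4.37% of all features were higher at that p. That list contains the metallothionein genes Mt1 and Mt2, and a metallothionein promoter drives the transgene. After Mt1 and Mt2, Fgl1, a secreted hepatocyte protein, had the smallest p, with a log2 difference of 1.32 ± 0.31 (limma adjusted p = 0.69).

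Among the other 6 clade A genes 5 had positive differences and 1 a negative one, with a median of 0.25. Serpina6 encodes corticosteroid-binding globulin, a hormone carrier without inhibitory activity. It had 9.59, 8.76 and 10.59 in Src-transgenic livers, against 9.27, 9.24 and 9.30 in wild-type livers, a difference of 0.38 ± 0.46. The transgenic livers lay on both sides of a tight wild-type group, and without transgenic replicate 4 the difference was -0.09. Serpina10, the protein Z-dependent inhibitor of clotting factor X, gave 0.12 ± 0.21, and its other probe gave -0.01 ± 0.20. Serpina12 encodes vaspin, a secreted inhibitor best known from fat tissue, and gave 0.02 ± 0.20. Serpina5, the protein C inhibitor, gave -0.67 ± 0.57, with 5.76 to 6.25 in Src-transgenic livers and 5.82, 6.33 and 8.03 in wild-type livers. The highest of these, wild-type replicate 4, lay in a patch of its array. Without that liver the difference was -0.02, and local correction of patches gave -0.40. Serpina9, known in humans from germinal centre B cells, had 5.64, 5.83 and 6.67 in Src-transgenic livers, against 5.56, 5.37 and 5.87 in wild-type livers, a difference of 0.45 ± 0.33. Without transgenic replicate 4 the difference was 0.13, and the gene was above background in 3 transgenic livers and 1 wild-type liver.

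Serpina11 was read differently by its 2 probes. The brighter probe, used for the gene, had 9.09, 9.72 and 10.15 in Src-transgenic livers, against 9.58, 9.08 and 8.92 in wild-type livers, a difference of 0.46 ± 0.34 that was 0.21 without transgenic replicate 4. The dimmer probe had 7.29, 10.36 and 10.95 in Src-transgenic livers, against 7.12, 7.18 and 6.78 in wild-type livers. Its signals were 169, 1460 and 2412 in Src-transgenic livers, against 84.1, 125 and 117 in wild-type livers. With it all 3 transgenic livers lay above all 3 wild-type livers, transgenic replicate 1 only just. The difference was 2.50 ± 0.93, or 5.67-fold, in a fit of every probe separately (limma adjusted p = 0.69). Permuting its 6 values over the livers gave an exact two-sided p of 0.1, the lowest value possible with 3 against 3. That fit called 1 of 34967 probes, or 0.00286%, and the called probe was not a serpin's. Neither probe lay in a patch. Leaving out each liver in turn gave 1.81 to 3.63 for the dimmer probe, and which transcripts each probe reads was not tested.

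**Figure D3:**
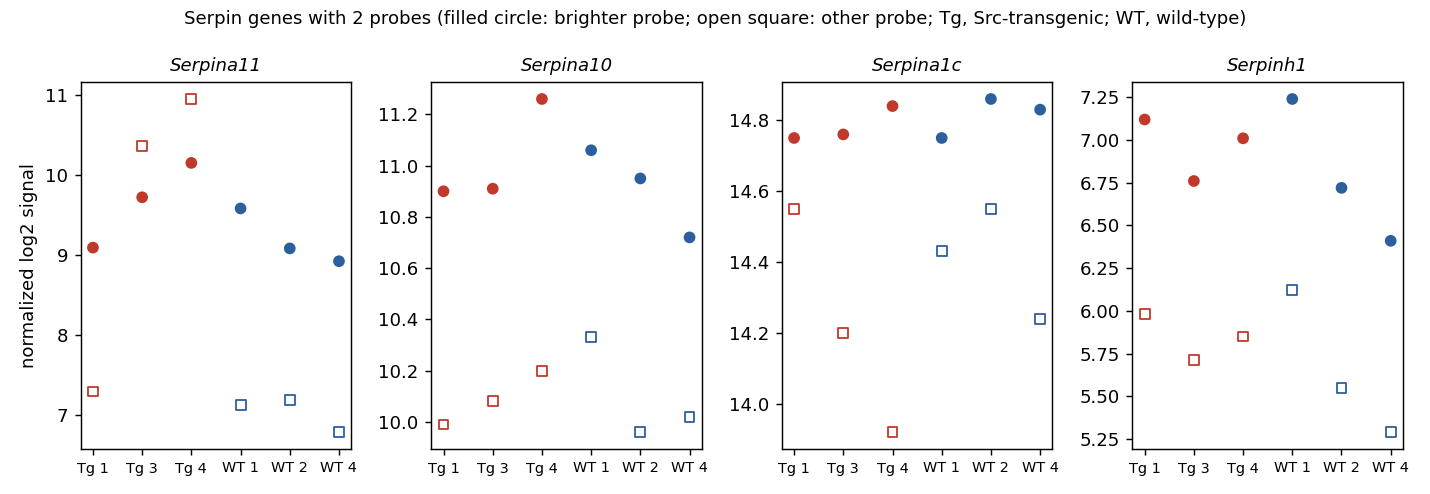
Log2 signal of both probes of the 4 serpins that had 2, in 3 Src-transgenic (Tg) and 3 wild-type (WT) livers. The probes of Serpina11 part, since its dimmer probe was at 10.36 and 10.95 in 2 transgenic livers and 7.29 or lower in the other 4 livers.

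Clade B serpins lack a classical signal peptide and mostly act inside cells, where they protect against released lysosomal and granule proteases. Of 21 measured, 10 had positive and 11 negative log2 differences, with a median of -0.09, and 12 lay above background on at least 3 arrays. Serpinb12, known as an inhibitor of trypsin-like proteases, was the serpin with the smallest p. It had 9.58, 10.57 and 9.98 in Src-transgenic livers, against 8.79, 8.99 and 9.39 in wild-type livers. Every transgenic liver lay above every wild-type liver, the nearest by a small gap. The difference was 0.98 ± 0.32, or 1.98-fold, and it did not pass limma's test (adjusted p = 0.69). It was 1.02 without transgenic replicate 4. The probe lay in no patch, and local correction, which acts on every spot, gave 0.85.

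Serpinb1a is the mouse form of the leukocyte elastase inhibitor, which restrains neutrophil proteases and is also made by hepatocytes, and Serpinb1b is a neighbouring paralog. Serpinb1a had 7.82, 7.81 and 8.97 in Src-transgenic livers, against 8.08, 7.23 and 7.50 in wild-type livers, a difference of 0.60 ± 0.41. Serpinb1b had 7.11, 7.04 and 8.84 in Src-transgenic livers, against 6.91, 6.62 and 6.76 in wild-type livers, a difference of 0.90 ± 0.51 without overlap (limma adjusted p = 0.7). In both genes transgenic replicate 4 was far above the other 5 livers, and without it the differences were 0.22 and 0.31. The Serpinb1b probe lay in a patch there, and local correction gave 0.38. The mean log2 signal of 10 neutrophil markers was 6.18, 5.93 and 6.22 in Src-transgenic livers and 5.77, 5.90 and 6.20 in wild-type livers, so the groups overlapped. Of these markers, 8 were above background on at least 3 arrays.

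Serpinb6a, an inhibitor of cathepsin G, had 8.49, 8.27 and 8.29 in Src-transgenic livers, against 8.81, 8.79 and 8.46 in wild-type livers, a difference of -0.33 ± 0.20. Its paralog Serpinb6b had 6.28, 6.34 and 6.39 in Src-transgenic livers, against 6.84, 6.61 and 6.66 in wild-type livers, a difference of -0.37 ± 0.18 without overlap (limma adjusted p = 0.69). Serpinb6c gave -0.09 ± 0.24. In Serpinb6a the groups overlapped at a single wild-type liver. Serpinb9, the inhibitor of granzyme B that protects cells from killer lymphocytes, had 4.84, 4.95 and 5.41 in Src-transgenic livers, against 5.84, 5.54 and 5.38 in wild-type livers, a difference of -0.52 ± 0.24. It was above background in 1 transgenic and 2 wild-type livers. The 13 markers of T, B and NK cells measured had a mean log2 signal of 6.13 to 6.41 in Src-transgenic and 6.44 to 6.55 in wild-type livers, and 9 of them were above background on at least 3 arrays. Their part in these values was not tested.

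The mouse-specific paralogs of Serpinb9 varied mostly by single livers. Serpinb9g had 5.94, 6.48 and 6.48 in Src-transgenic livers, against 5.94, 5.79 and 5.87 in wild-type livers, a difference of 0.43 ± 0.22. Serpinb9e had 5.93, 7.79 and 6.42 in Src-transgenic livers, against 6.90, 5.25 and 5.23 in wild-type livers, a difference of 0.92 ± 0.65. Its highest value, in transgenic replicate 3, lay in a patch, and the difference was 0.86 after local correction and 0.38 without that liver. Serpinb9b gave -0.10 ± 0.23. With the 1 probe used per gene, the widest differences of the family were in Serpinb9c and Serpinb9d, named here after their values were seen, and each rested on 1 liver. Serpinb9c had signals of 57.0, 41.6 and 947 in Src-transgenic livers, against 31.5, 32.0 and 39.3 in wild-type livers, where it was not above background, and was at least 2.33-fold higher. Without transgenic replicate 4 its log2 difference was 0.05. Serpinb9d had signals of 1.7, 9.6 and 9.3 in Src-transgenic livers, against 8.7, 647 and 10.8 in wild-type livers, and was at least 1.14-fold lower. Without wild-type replicate 2 its log2 difference was -0.52. Both bright spots lay in patches of their arrays, and after local correction the log2 differences were 1.25 for Serpinb9c and -2.24 for Serpinb9d.

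Serpinb3c, of the family that in humans is called squamous cell carcinoma antigen, had 7.53, 6.71 and 6.28 in Src-transgenic livers, against 7.37, 8.20 and 7.42 in wild-type livers, a difference of -0.83 ± 0.40 with transgenic replicate 1 among the wild-type values. Serpinb13 gave -0.10 ± 0.35. Serpinb3b, Serpinb7 and Serpini2, a clade I gene, were above background in at most 2 livers and had differences of 0.04 to 0.30.

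The remaining secreted clades hold the regulators of clotting, fibrinolysis and complement. Of 10 genes in clades C to I, 8 had positive and 2 negative log2 differences, with a median of 0.09. Serpinc1 encodes antithrombin, the main inhibitor of thrombin and factor Xa. It had 12.72, 12.20 and 12.70 in Src-transgenic livers, against 12.66, 12.71 and 12.27 in wild-type livers, a difference of -0.01 ± 0.24. Its probe lay in patches on 2 transgenic arrays, and after local correction the difference was -0.55. Serpind1, heparin cofactor II, gave 0.09 ± 0.22. Serpinf2, the antiplasmin that limits clot lysis, gave 0.06 ± 0.25. Serping1, the C1 inhibitor of complement and the contact system, had 13.29, 13.34 and 13.27 in Src-transgenic livers, against 13.14, 13.42 and 13.29 in wild-type livers, a difference of 0.02 ± 0.18. Serpinf1, the non-inhibitory pigment epithelium-derived factor, had 12.12, 12.20 and 12.23 in Src-transgenic livers, against 12.17, 12.03 and 12.06 in wild-type livers, a difference of 0.10 ± 0.17. In each of these genes the groups overlapped.

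Serpine2, protease nexin-1, gave -0.29 ± 0.28, which was -0.03 without transgenic replicate 4. Serpinh1 encodes Hsp47, a collagen chaperone of the endoplasmic reticulum that has lost inhibitory activity and is heat shock inducible. It gave 0.17 ± 0.27, and its other probe 0.19 ± 0.27. The heat shock genes listed beside it were 15 positive and 2 negative of 17 measured, with a median of 0.54 and 5 at an unadjusted p under 0.05, all higher, where 4.37% of all features were higher at that p. They included the chaperone genes Dnajb1 with 2.28 ± 0.67, Hsp90aa1 with 1.29 ± 0.44 and Chordc1 with 0.75 ± 0.25. Of 23 genes for folding in the endoplasmic reticulum, collagen processing and the collagens themselves, 15 were positive and 8 negative with a median of 0.08, and 3 reached that p, all higher. The 7 collagen genes among them had differences of -0.55 to 0.31. The 3 were P4ha1, a prolyl hydroxylase subunit for collagen, with 0.75 ± 0.19, Creld2 with 1.42 ± 0.44 and the chaperone Hspa5 with 1.07 ± 0.40, and 0 of either list passed the adjusted test.

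Serpini1, neuroserpin, is best known as an inhibitor of tissue plasminogen activator in the brain. It had 8.46, 7.71 and 10.85 in Src-transgenic livers, against 8.37, 8.03 and 7.58 in wild-type livers, a difference of 1.02 ± 0.80. The other 5 livers overlapped, and without transgenic replicate 4 the difference was 0.09. The probe lay in a patch on that array, and local correction gave 0.71.

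**Figure D4:**
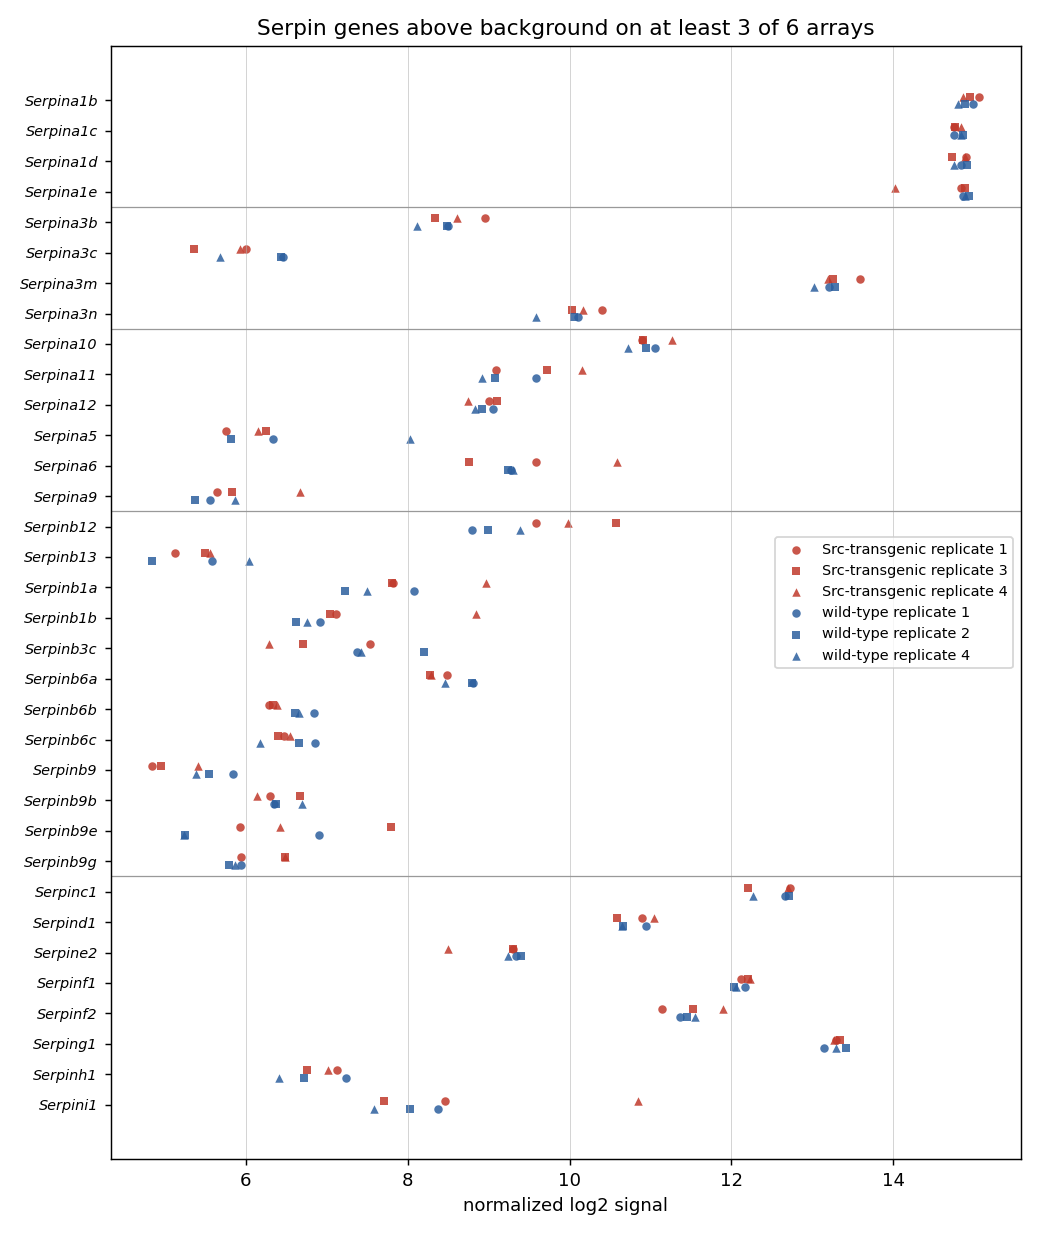
Log2 signal on each array of the serpins above background on at least 3 arrays, in 3 Src-transgenic and 3 wild-type livers. Serpinb9c and Serpinb9d were above background on fewer arrays and are not shown. Serpinb12 and Serpinb1b lie higher and Serpinb6b lower in every transgenic liver, while the Serpina1 genes lie together except Serpina1e in transgenic replicate 4.

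Transgenic replicate 4 recurred in these descriptions, so the serpins that lay outside the other 5 livers by more than 0.5 were counted for each array, a limit set after the values were seen. Transgenic replicate 4 stood alone for 10 of 45 serpins, or 22.2%, where 9.16% of all features did so on that array. They were 7 above, namely Serpina6, Serpina9, Serpinb1a, Serpinb1b, Serpinb9c, Serpini1 and Serpini2, and 3 below, namely Serpina1e, Serpinb2 and Serpine2. Serpinb2 was above background on no array and its value there, a signal of 5.7, was at the floor of 5.75, so its gap is not a measured one. The other arrays stood alone for 1 and 3 serpins in Src-transgenic and for 1, 2 and 2 in wild-type livers. Of all features, these arrays stood alone for 3.36% and 7.53%, and for 9.74%, 6.33% and 7.41%. Wild-type replicate 1 thus had a higher share of all features than transgenic replicate 4. The same limit as for Serpinb2 holds on other arrays. The serpin of transgenic replicate 1 was Serpinb9d, with a signal of 1.7 under the floor of 5.56. Serpinb5, among those of transgenic replicate 3, and Serpinb1c, that of wild-type replicate 1, were above background on no array. After local correction of patches transgenic replicate 4 again stood alone for 7 above and 3 below, of which Serpina6, Serpina9, Serpinb1a, Serpinb1b, Serpinb9c, Serpini1, Serpina1e and Serpinb2 were the same genes. The share of all features after this correction was not counted.

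Other genes set this liver apart as well. The Y-linked genes Eif2s3y, Ddx3y and Uty were above background in every liver but this one, while Kdm5d was above it in all 6. Kdm5d was highest in this liver, with log2 signals of 8.74, 8.43 and 9.03 in Src-transgenic livers, against 8.32, 8.36 and 8.34 in wild-type livers. Eif2s3y had log2 signals of 9.07, 9.21 and 4.94 in Src-transgenic livers, against 9.65, 8.84 and 8.63 in wild-type livers. The mean over the 4 genes was 5.47 in transgenic replicate 4 and 7.50 or more in the other 5 livers. The 16 female-biased liver genes measured had a mean of 8.16, 7.66 and 10.31 in Src-transgenic livers, against 6.78, 6.80 and 6.83 in wild-type livers. The 14 male-biased genes had 10.65, 11.06 and 9.34 in Src-transgenic livers, against 11.55, 11.64 and 11.50 in wild-type livers. Transgenic replicate 4 had the extreme mean of each of these lists, and in both sex-biased lists the other transgenic livers also lay to the same side of all wild-type livers. The 9 macrophage markers had 9.22, 9.10 and 10.07 in Src-transgenic livers, against 9.45, 9.34 and 9.22 in wild-type livers, again with this liver highest. The labels give no sex, and the part of these differences in the serpin values was not tested.

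**Figure D5:**
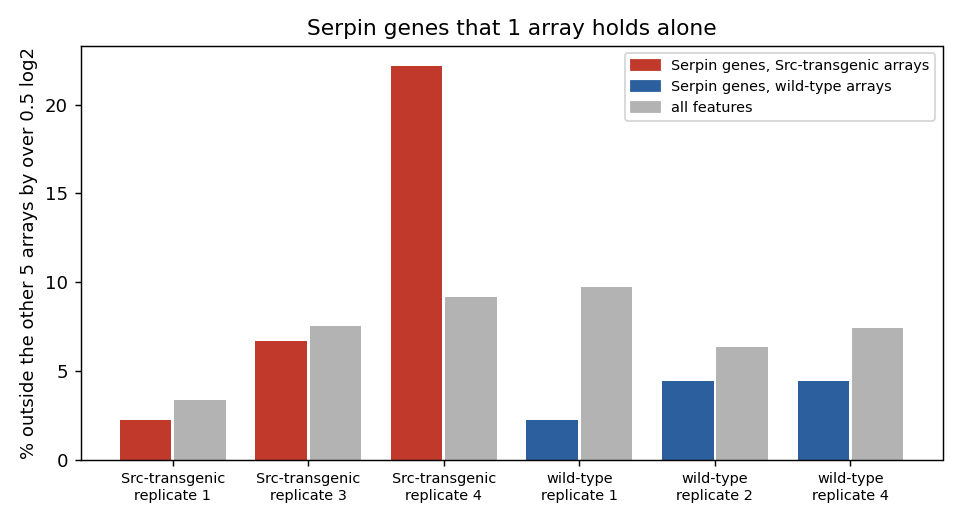
Share of serpins and of all features that lay outside the other 5 arrays by more than 0.5 on the log2 scale, for each array. Transgenic replicate 4 stood alone for 22.2% of serpins and 9.16% of all features. On the other 5 arrays the share of serpins was 2.22% to 6.67% and that of all features 3.36% to 9.74%.

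The partners of serpins were read from lists of their proteases, cofactors, fellow inhibitors and regulators. Of 27 proteases that serpins inhibit, 11 had positive and 16 negative log2 differences, with a median of -0.08. F7, clotting factor VII, was the only one at an unadjusted p under 0.05, where 2.72% of all features were lower at that p. It had 8.48, 8.50 and 8.64 in Src-transgenic livers, against 9.37, 9.06 and 9.27 in wild-type livers, a difference of -0.70 ± 0.19 without overlap (limma adjusted p = 0.69). The F7 probe lay in a patch on the array of wild-type replicate 4. F11, clotting factor XI, gave -0.64 ± 0.26, and the membrane protease Prss8 -0.82 ± 0.41. Of 12 cofactors and clearance receptors 6 were positive and 6 negative, with a median of 0.00, and they included the lipoprotein receptor Vldlr with 0.55 ± 0.31 and thrombomodulin, Thbd, with 0.41 ± 0.27.

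Protease inhibitors outside the serpin fold numbered 24, with 13 positive and 11 negative differences and a median of 0.02, and 4 reached an unadjusted p under 0.05, all higher, beside 4.37% of all features. Slpi, a secreted inhibitor of neutrophil elastase, had 8.36, 8.28 and 8.08 in Src-transgenic livers, against 7.20, 7.45 and 7.66 in wild-type livers, a difference of 0.81 ± 0.21 without overlap. Itih4 and Itih2, heavy chains of the inter-alpha-trypsin inhibitor family made by hepatocytes, gave 0.62 ± 0.21 and 0.62 ± 0.25, also without overlap. The remaining gene of the 4 was above background on no array, and Itih4 was counted among the acute phase proteins as well. Of 18 transcription factors linked to hepatic serpin genes 11 were positive and 7 negative, with a median of 0.17. Stat3, which carries the interleukin-6 signal to acute phase genes, gave 0.51 ± 0.22, Stat5a -0.56 ± 0.20 and Cebpa -0.51 ± 0.22. The groups did not overlap for these 3, which were named for the smallest p of the list. Of the 18, 4 lay higher and 2 lower without overlap, where all features gave 10.1% and 5.9%. The adjusted test passed 0 of the 3 (limma adjusted p = 0.69 for each).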

How the data were processed

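RNA was extracted from 6 livers, amplified to biotin-labelled cRNA and hybridized to 1-colour arrays, per the labels' protocols. The deposited intensity of each spot was its signal after subtraction of background, per the file headers. A second deposited intensity column was that signal divided by 1 constant per array, and the authors' value table equalled it. The scanner is not named in the labels.

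The 620 control spots among the 35587 of an array, of 12 names, did not enter the fit. A floor at percentile 1 of the positive signals (4.72 to 5.75 by array) was applied, log2 values were quantile normalized, and the probe with the highest mean was used for a gene. Names came from RefSeq (GRCm38.p6) by accession without version, which named 14760 of 34967 probes; the other 20207 were kept as unnamed features. Above background means a signal over a threshold (33 to 50.6 by array) that lay 3 scaled median absolute deviations over the median of 570 control spots. A fold given as at least sets the brighter group's mean against, per array, the higher of the dim probe's value and the lowest signal above background. The labelled genotypes were contrasted by limma's lmFit and eBayes (version 3.58.1, R 4.3.3), two-sided, with Benjamini-Hochberg adjustment over 34175 features. A patch was a place where the median deviation of spots within 4 rows and columns exceeded 0.5. Local correction subtracted this median deviation from every spot of every array, in a patch or not. Figures used matplotlib 3.10.9.

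Every serpin above background on at least 3 arrays was to be named, with values by liver for the 12 of these with the smallest p, the 8 with the highest mean signal and any without overlap. Of each other list up to 3 genes with the smallest p were named among those above background on 3 arrays. Serpins above background on fewer arrays were to be named only where they were above it on all arrays of 1 group, and the others named were chosen after their values were seen. Single values of 1 serpin and of 1 gene of the other lists are not reported here and are left out of the figures, while the counts and medians include them. The members and gene lists were chosen with earlier results of these data known. The steps were tested on simulated data. Alternatives to the normalization were median scaling, the second deposited column, a higher floor, an offset added before the log and local correction of patches. Others were a filter on dim probes, the mean of a gene's probes, array weights and a trend of variance in limma. A replicate block and leaving out each array were also tried.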

Additional observations from a re-analysis of the deposited data

How the results depend on the processing

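The count of features called at an adjusted p under 0.05 was 0 under each alternative except 2 of the 6 that leave out an array (range 0 to 1). The probe GE115078 was called without transgenic replicate 4 (log2 6.30, limma adjusted p = 0.031) and GE1410659 without wild-type replicate 1 (log2 -5.50, limma adjusted p = 0.039), and neither was a serpin's. Median scaling gave 943 features higher and 1312 lower at an unadjusted p under 0.05, where quantile normalization gave 1493 and 931. Serpins without overlap numbered 4, against 8 under median scaling, 8 with the second deposited column and 6 to 14 when an array was left out, which makes smaller groups. The share of all features without overlap was counted only in the main setting (10.1% higher and 5.9% lower). Whether the other counts exceed their background is therefore unknown. Serpins with a positive difference numbered 28, against 18 under median scaling, 18 with the second column and 23 to 29 without an array. The median of the serpins was 0.07, against -0.15 under median scaling, -0.15 with the second column, -0.02 after local correction of patches and 0.01 to 0.14 without an array. Of 36 serpins followed singly, 24 kept their sign under the alternatives other than leaving out an array. Under median scaling and with the second column, which gave the same values, the sign turned for Serpina10 (-0.14), Serpina12 (-0.08), Serpina1b (-0.67), Serpina1d (-0.66), Serpina3m (-0.18), Serpind1 (-0.18), Serpinf1 (-0.21), Serpinf2 (-0.22) and Serping1 (-0.31). After local correction it turned for Serpina10 (-0.03), Serpina12 (-0.05), Serpina1d (-0.05), Serpind1 (-0.08) and Serping1 (-0.02), and with array weights for Serpina1d (-0.02), Serpinb13 (0.03), Serpinf2 (-0.03) and Serping1 (-0.02). Leaving out an array turned the sign for Serpina10 (0.00 to 0.19), Serpina12 (-0.06 to 0.12), Serpina1c (-0.06 to 0.00), Serpina1d (-0.04 to 0.06), Serpina6 (-0.09 to 0.83), Serpinb13 (-0.42 to 0.18), Serpinb6c (-0.29 to 0.06), Serpinb9b (-0.25 to 0.02), Serpinc1 (-0.14 to 0.17), Serpind1 (-0.01 to 0.22), Serpinf2 (-0.13 to 0.25), Serping1 (-0.06 to 0.08) and Serpinh1 (-0.01 to 0.40). The causes were not tested.

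Replicate numbers 1 and 4 occur in both groups, but the labels number separate mice, so the numbers were not taken as pairs. Same-numbered livers deviated together with a correlation of 0.06 for each pair. Differently numbered livers of the 2 groups gave -0.07 to 0.02, so the same-numbered pairs were the highest, at a low level. Whether the numbers mark a shared step was not tested. With the replicate number as a block, 0 features were called, and 679 were higher and 669 lower at an unadjusted p under 0.05. The serpins then had a median of 0.07 and 27 positive differences. Numbers other than 1 and 4 occur in a single group, so this fit compared the groups only within replicates 1 and 4. That leaves little spread for its p-values to rest on. The count without overlap does not use the block, so it stayed at 4 and cannot test the block. The block turned the sign for Serpina12 (-0.07), Serpina1c (0.01) and Serpinc1 (0.25). The number of arrays limits what any of these comparisons can show, as do signals near background for clade B.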
